A study of Mus musculus with 6 samples.

Results

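The cytosolic ribosomal protein genes were examined as a group in mouse bone marrow-derived macrophages (BMDMs), primary macrophages grown from bone marrow cells. They were taken from the deposited gene count table by symbol, as rows named Rpl or Rps followed by a number, Rplp0 to Rplp2, or Rpsa. A row also needed at least 60 counts summed over the 6 libraries. Of 55335 genes in the table, 82 had such a symbol and 80 reached the minimum, 48 of the large subunit and 32 of the small subunit. The 2 that did not were Rpl10l, listed at 0 in every library, and Rpl3l, with between 0 and 9 counts per library; both are paralogues known from other tissues. All 80 genes passed the filter on low counts, so the test below covers every member.

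The cells were cultured in high-glucose medium with 10% serum, 1% antibiotic and macrophage colony-stimulating factor at 20 ng/mL. On day 5 all of them received PAC-CM, the conditioned medium of injured acinar cells of the pancreas, which secrete digestive enzymes. A group of 3 libraries had PAC-CM only, and the other group of 3 had PAC-CM plus 400 µM kinsenoside, a plant glycoside. Both groups thus carry the conditioned medium, and no macrophages without it were analysed here. Every comparison is of PAC-CM plus kinsenoside against PAC-CM only. Whether a replicate is a culture, an animal or a repeat library is not stated in the labels, and the p-values rest on the spread among these 6 samples, part of which may be technical.

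Ribosomal proteins assemble with ribosomal RNA in the nucleolus into a small subunit, which reads the mRNA, and a large subunit, which forms peptide bonds. Their mRNAs are short, abundant and long-lived. They begin with a C followed by a run of pyrimidines, the terminal oligopyrimidine (TOP) motif, through which mTORC1 and LARP1 control their translation. Several ribosomal proteins have further roles outside the ribosome, such as the binding of MDM2 by Rpl5 and Rpl11 or the control of inflammatory mRNAs by Rpl13a in myeloid cells.

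The start site sequence is the feature that this gene family is best known for, and it was read for the genes in the RefSeq promoter table of GRCm38.p6, which matched 58 of the 80 genes. Each window below holds 30 bases, 15 before and 15 from the annotated start on, 5′ to 3′ on the strand of the gene. Capitals mark the unbroken run of C and T bases that begins with a C at the annotated start. The first 8 were chosen among the 12 genes with such a run of at least 5 bases so as to show both subunits, and include Rps15a, Rps10 and Rpl38, on which results below turn. Rpl26 and Rps25, with the largest estimate of the large subunit and an estimate near 0, have no such run at the annotated start.
Rps15a, chr7:118116133-118116162, minus strand: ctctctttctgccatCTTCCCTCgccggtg
Rps10, chr17:27635230-27635259, minus strand: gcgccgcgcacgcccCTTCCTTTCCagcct
Rps18, chr17:33955651-33955680, minus strand: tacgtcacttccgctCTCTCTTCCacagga
Rps6, chr4:86857353-86857382, minus strand: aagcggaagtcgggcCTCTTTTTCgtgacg
Rpl15, chr14:18270972-18271001, minus strand: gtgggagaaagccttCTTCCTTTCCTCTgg
Rpl35, chr2:39005117-39005146, minus strand: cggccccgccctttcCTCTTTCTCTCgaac
Rpl38, chr11:114668565-114668594, plus strand: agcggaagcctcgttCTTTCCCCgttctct
Rplp2, chr7:141447636-141447665, plus strand: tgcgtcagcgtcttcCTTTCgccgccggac
Rpl26, chr11:68901551-68901580, plus strand: ctcgcggcaacttacagaaccggaagtcgc
Rps25, chr9:44407699-44407728, plus strand: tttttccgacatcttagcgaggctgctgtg
A C followed by 4 further bases of C or T stood exactly at the annotated start in 12 of the 58 genes (20.7%), 6 of each subunit, against 2.49% of all 27025 entries in the table. Within 10 bases of the start it was present in 33 of the 58 (56.9%), against 30.8% of all entries. A match is a description of these letters, and the annotated start need not be the start used in macrophages.

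Total counts were between 41125059 and 47461702 per library, with the lowest total in kinsenoside replicate 3. The cells carried the defining transcripts of macrophages: all 12 of the macrophage markers were detected, and their summed level was between 19250 and 20920 CPM (counts scaled by the library total) with PAC-CM and between 21000 and 23240 CPM with kinsenoside, without overlap. Of 12 neutrophil markers 10 were detected, with sums of 67.0 to 84.0 CPM and 113 to 169 CPM, again without overlap. Mmp8 was at 36.4 ± 7.28 CPM with PAC-CM and 98.0 ± 24.6 CPM with kinsenoside (SD, n = 3). It was most of the sum in each kinsenoside library. In PAC-CM replicates 1 to 3 it was 29.2 of 67.0, 43.8 of 84.0 and 36.3 of 67.5 CPM. The defining genes Elane and Retnlg were at 0. Of 18 acinar markers 15 were detected, at a low summed level of between 6.56 and 9.07 CPM over all 6 libraries. Prss1 and Ptf1a were among those at 0. No marker in any list differed in edgeR's test after adjustment, while DESeq2 called Mmp8. The part of the macrophage and neutrophil markers in the results below was not tested.

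Nearly all ribosomal protein transcripts had a slightly higher level with kinsenoside, and the shift was small and similar from gene to gene. The median log2 fold change of the 80 genes was 0.26, a 1.20-fold difference, with quartiles of 0.18 and 0.34, while the median over all 13901 genes tested was -0.01. The estimate was above 0 in 78 of the 80, against 48.9% of all genes tested; the 2 below 0, Rpl39l and Rps4l, were the least abundant of the 80 per kilobase. In 54 of the 80 genes all 3 kinsenoside libraries lay above all 3 PAC-CM libraries on the scale of log2 CPM with trimmed-mean (TMM) scaling, and in none did they lie below. Over all genes tested 10.4% were separated upwards and 11.4% downwards. Without that scaling, in plain CPM, 41 of the 80 were separated upwards, against 6.86% of all genes. The transcripts were measured in bulk, so a change in the number of cells of a type and a change in RNA per cell cannot be told apart.

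Single genes rarely passed the threshold. With edgeR (quasi-likelihood test, Benjamini-Hochberg adjustment over all genes tested) 1 of the 80 was called higher at an adjusted p under 0.05, against a background of 0.209% of genes called higher, and none was called lower, against 0.302%. At an unadjusted p under 0.05, 55 of the 80 were higher, 35 of the large and 20 of the small subunit, against 6.74% of all genes. With DESeq2 20 of the 80 were called, all higher, 12 of the large and 8 of the small subunit, against 1.32% of the genes that this tool gave an adjusted p. The standard error of the 80 estimates had a median of 0.09 on the log2 scale.

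**Figure D1:**
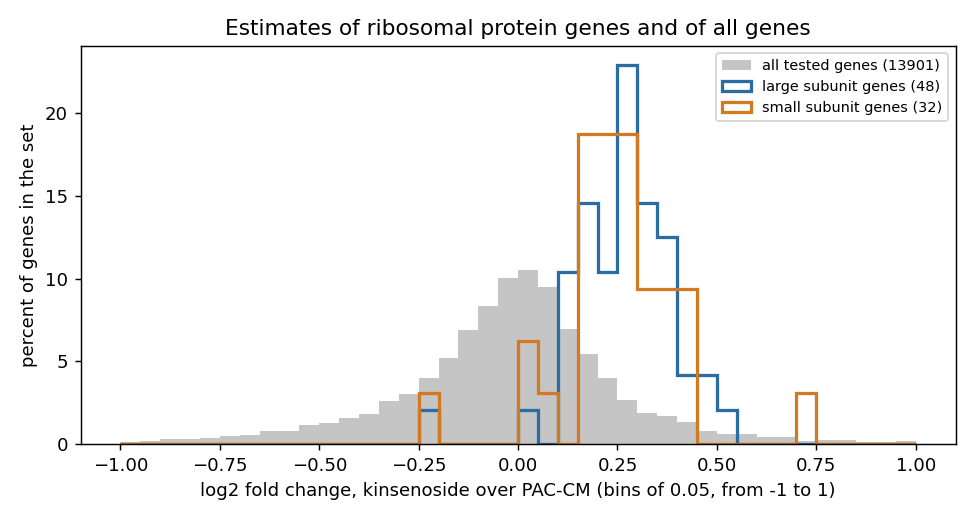
Percent of the genes in each set (vertical axis) by log2 fold change of kinsenoside over PAC-CM (horizontal axis, bins of 0.05 between -1 and 1), for all 13901 genes tested (grey), 48 large subunit genes (blue line) and 32 small subunit genes (orange line). Most genes of both ribosomal sets lie to the right of 0, with medians of 0.27 and 0.25 and 1 gene of each below 0, and the sets overlap each other.

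The size of the shift varied from library to library. For each gene the log2 CPM was set against its own mean over the 6 libraries, and the median of the 80 deviations was taken per library. With PAC-CM this median was -0.20, -0.15 and -0.04 (replicates 1 to 3), and with kinsenoside 0.03, 0.10 and 0.26. The groups did not overlap, but PAC-CM replicate 3 and kinsenoside replicate 1 lay close together, and kinsenoside replicate 3 stood highest. Of the 80 genes, 5, 6 and 22 were above their own mean with PAC-CM, and 49, 75 and 77 with kinsenoside. Kinsenoside replicate 3 was the highest library in CPM for 68 of the 80 genes, and PAC-CM replicate 1 the lowest for 43. Without kinsenoside replicate 3 the median log2 fold change was 0.21, and without PAC-CM replicate 3 it was 0.32.

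The genes moved together over the libraries. The first principal component of the 80 genes held 71.0% of their variance, against 28.8% for all genes tested, and it ordered the libraries as the medians did. Over the 3160 pairs of genes the median correlation across the 6 libraries was 0.84, and 94.0% of pairs correlated positively. These 6 points share the group difference and the library's depth and composition, so the correlations describe the table only.

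**Figure D2:**
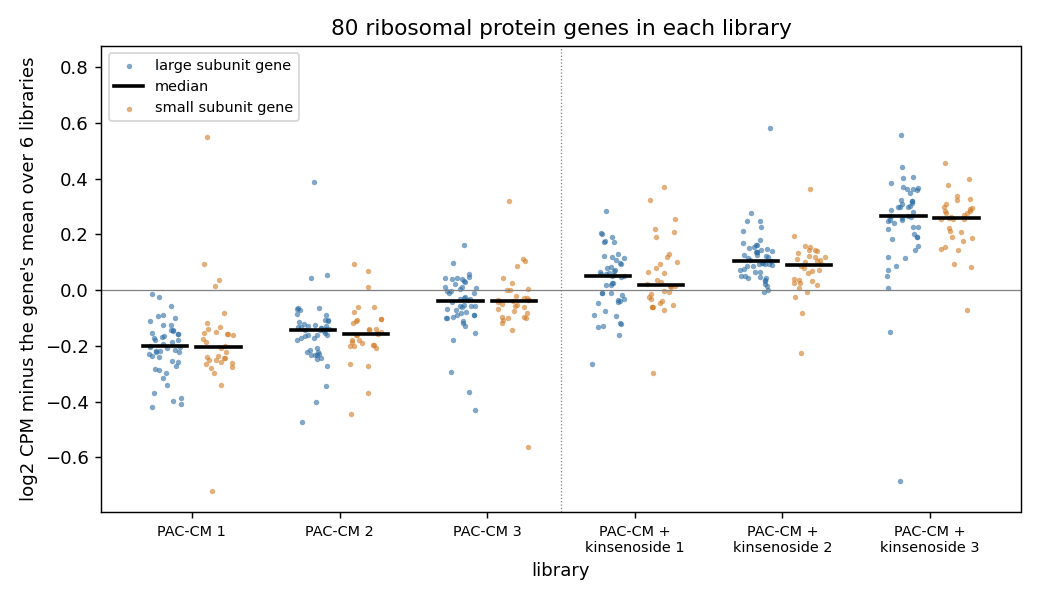
Log2 CPM of each ribosomal protein gene minus its own mean over the 6 libraries (vertical axis) in every library (horizontal axis), with large subunit genes in blue, small subunit genes in orange and a black bar at the median. The medians of all 80 genes run from -0.20 in PAC-CM replicate 1 to 0.26 in kinsenoside replicate 3, and the few points far from their column include those of Rps10, Rpl29, Rps25, Rps4l and Rpl39l.

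Rps15a, a protein of the small subunit body, was the gene that passed the test. Its level was 69.2, 70.1 and 74.7 CPM with PAC-CM and 89.9, 90.6 and 88.5 CPM with kinsenoside. The replicates of each group lay close together and the groups well apart. It rose 1.296-fold (log2 fold change 0.37, SE 0.06, adjusted p = 0.048 in edgeR). The call stood near the threshold: leaving out any of the 6 libraries gave an adjusted p between 0.070 and 0.225, and correcting for length and GC content of the transcript gave 0.075, with a log2 fold change of 0.28.

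Among the 48 large subunit genes 33 were separated upwards on the TMM scale, against 10.4% of all genes tested. Of these 48 genes edgeR and limma-voom called none, and DESeq2 called 12, among them Rpl26, Rpl38, Rpl10a, Rpl31 and Rpl35a. Rpl26, a protein at the exit of the peptide tunnel that also binds p53 mRNA, had the largest estimate. It was at 113, 121 and 126 CPM with PAC-CM and at 158, 139 and 202 CPM with kinsenoside, so the groups did not overlap but the kinsenoside libraries differed by more than the gap between the groups. Its log2 fold change was 0.52 (SE 0.14, adjusted p = 0.147 in edgeR).

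Rpl38, a small surface protein known for its part in the translation of Hox mRNAs, followed with 19.7, 23.0 and 18.7 CPM against 28.5, 24.2 and 30.8 CPM. The lowest kinsenoside library lay just above the highest PAC-CM library (log2 fold change 0.49, adjusted p = 0.122 in edgeR). Rpl10a, which forms the L1 stalk where spent tRNA leaves, went from 49.5 ± 5.85 to 66.3 ± 8.03 CPM (SD, n = 3), with a log2 fold change of 0.47. Rpl31, a neighbour of the tunnel exit, was at 77.2 ± 6.83 and 99.5 ± 6.92 CPM, and Rpl35a, a gene mutated in Diamond-Blackfan anaemia, at 43.3 ± 3.15 and 55.1 ± 3.20 CPM. For these 3 genes no library of one group overlapped the other.

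At the other end of the order were genes that hardly differed. Rpl3, which lies next to the peptidyl transferase centre, was at 120, 114 and 126 CPM with PAC-CM and at 111, 123 and 128 CPM with kinsenoside. The groups overlapped throughout, and the log2 fold change was 0.05 (SE 0.07). Rpl4, whose loop lines the peptide tunnel, was at 269 ± 17.2 and 281 ± 31.0 CPM, with overlap and a log2 fold change of 0.11. The other large subunit genes with the smallest estimates were Rpl7 at 0.12, Rpl41, the shortest ribosomal protein, at 0.11, and Rpl39l, treated with the paralogues below. The gene of Rpl3 overlaps Syngr1 on the opposite strand, which held between 4482 and 5169 counts per library, and the sources used here do not say whether the counting used strand.

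The P stalk, which recruits elongation factors to the large subunit, consists of Rplp0 and the dimers of Rplp1 and Rplp2. Rplp0 was at 591, 585 and 647 CPM with PAC-CM and at 624, 665 and 818 CPM with kinsenoside. Its groups overlapped, and kinsenoside replicate 3 stood far above the others (log2 fold change 0.25, adjusted p = 0.312 in edgeR). Rplp1 was at 276 ± 18.3 and 318 ± 18.1 CPM, and Rplp2 at 81.5 ± 4.88 and 97.2 ± 1.95 CPM. Both were without overlap, with log2 fold changes of 0.25 and 0.30, so the 3 estimates were close to the group's median of 0.26.

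Large subunit genes with known roles outside the ribosome had estimates on both sides of the group's median. Rpl5 and Rpl11, which together with ribosomal RNA bind MDM2 and thereby stabilise p53, were at 121 ± 7.92 and 130 ± 19.9 CPM and at 103 ± 17.1 and 114 ± 11.2 CPM. Both overlapped between groups, with log2 fold changes of 0.16 and 0.20. Rpl13a, which silences inflammatory mRNAs when released from the ribosome, was at 98.7, 119 and 133 CPM against 139, 134 and 163 CPM. Its lowest kinsenoside library lay barely above PAC-CM replicate 3 (log2 fold change 0.36, SE 0.12, adjusted p = 0.232 in edgeR). Rpl10, which joins the large subunit late in its assembly, had an estimate of 0.16.

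In the small subunit 21 of 32 genes were separated upwards on the TMM scale, against 10.4% of all genes tested. Rps28, Rps29 and Rps19, all of them mutated in Diamond-Blackfan anaemia, followed Rps10 at the top of the order. Rps28 was at 20.0, 19.7 and 22.4 CPM against 26.9, 25.3 and 27.5 CPM, and the groups were separate with a gap larger than the spread inside either (log2 fold change 0.40, adjusted p = 0.088 in edgeR). Rps29 was at 31.3 ± 1.40 and 40.3 ± 4.09 CPM, and Rps19 at 67.3 ± 5.68 and 86.2 ± 8.995 CPM. The transcripts of Rps28 and Rps29 are 271 and 390 bases long, shorter than most of the group.

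Other small subunit genes had smaller estimates. Rps9, an mRNA entry channel protein, was at 221 ± 14.3 and 239 ± 19.1 CPM with overlap, an estimate of 0.16. Rps6, the substrate of the S6 kinases, had an estimate of 0.26, equal to the group's median. Its levels of 127, 122 and 135 CPM against 138, 147 and 161 CPM did not overlap.

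Among the other small subunit genes with a well-known side role, Rps3, which also takes part in DNA repair and NF-kappaB binding, was at 272 ± 5.50 and 300 ± 17.4 CPM, without overlap. Rpsa, also described as a laminin receptor, was at 230 ± 12.7 and 274 ± 36.0 CPM, with an overlap in CPM that TMM scaling removed. Rps27a, made as a fusion with ubiquitin, was at 115 ± 9.70 and 126 ± 13.7 CPM and overlapped. Their log2 fold changes were 0.19, 0.30 and 0.18, and the adjusted p in edgeR was 0.236, 0.221 and 0.437.

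**Figure D3:**
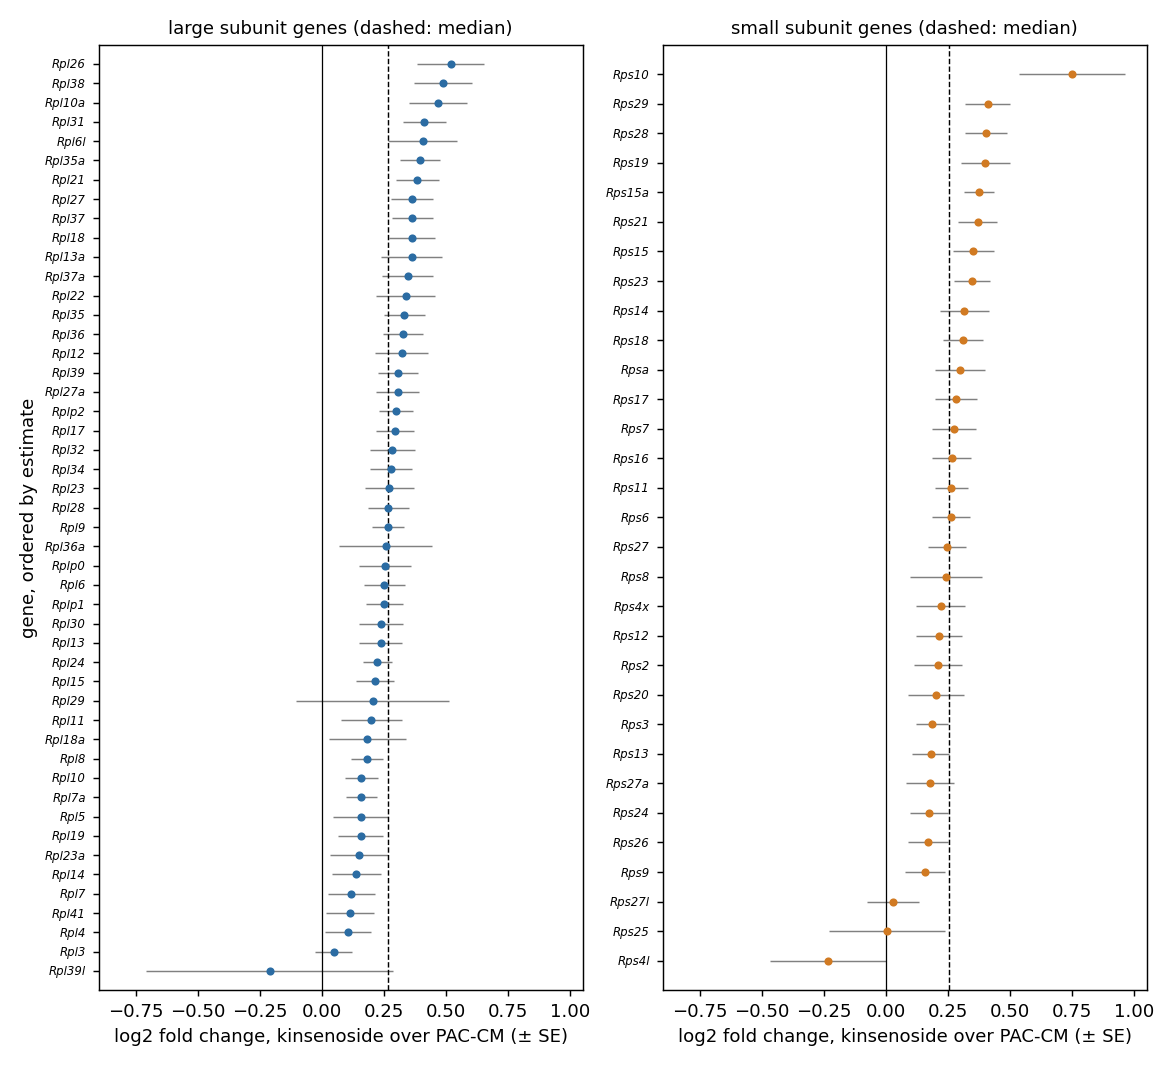
Log2 fold change of kinsenoside over PAC-CM (horizontal axis, point) with its standard error (bar) for large subunit genes (left) and small subunit genes (right), ordered by estimate, with the median of each subunit dashed. All genes drawn but Rpl39l and Rps4l are above 0, and Rps10, at 0.75, stands apart at the top of the small subunit.

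Large and small subunit genes had nearly the same median shift. The median log2 fold change was 0.27 in the large subunit, with a range of -0.21 to 0.52, and 0.25 in the small subunit, with a range of -0.23 to 0.75. Large subunit genes took 0.519%, 0.531% and 0.576% of all counts with PAC-CM and 0.573%, 0.618% and 0.676% with kinsenoside. Small subunit genes took 0.354%, 0.362% and 0.388% and then 0.395%, 0.413% and 0.457%. PAC-CM replicate 3 was just above kinsenoside replicate 1 for the large subunit and just below it for the small subunit, so the former overlapped and the latter did not.

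The ratio of the subunits overlapped between the groups. The summed count of large over small subunit genes was 1.469, 1.467 and 1.486 with PAC-CM and 1.449, 1.498 and 1.480 with kinsenoside. The kinsenoside libraries held both the lowest and the highest ratio, and the means were 1.47 ± 0.01 and 1.48 ± 0.02 (SD, n = 3).

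Together the 80 genes took 0.873%, 0.892% and 0.964% of all counts with PAC-CM and 0.968%, 1.03% and 1.13% with kinsenoside. The means were 0.910% ± 0.05 and 1.04% ± 0.08, a ratio of 1.15, and the groups were separated by a gap much smaller than the range inside either. The share taken by mitochondrially encoded genes can vary with RNA quality and with other factors. This share was between 2.68% and 2.92% with PAC-CM and between 2.67% and 3.41% with kinsenoside. It was highest in kinsenoside replicate 3, the library with the highest ribosomal share, and its part in the result was not tested; leaving out these genes and the 20 most abundant genes gave a median log2 fold change of 0.27 for the ribosomal genes.

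**Figure D4:**
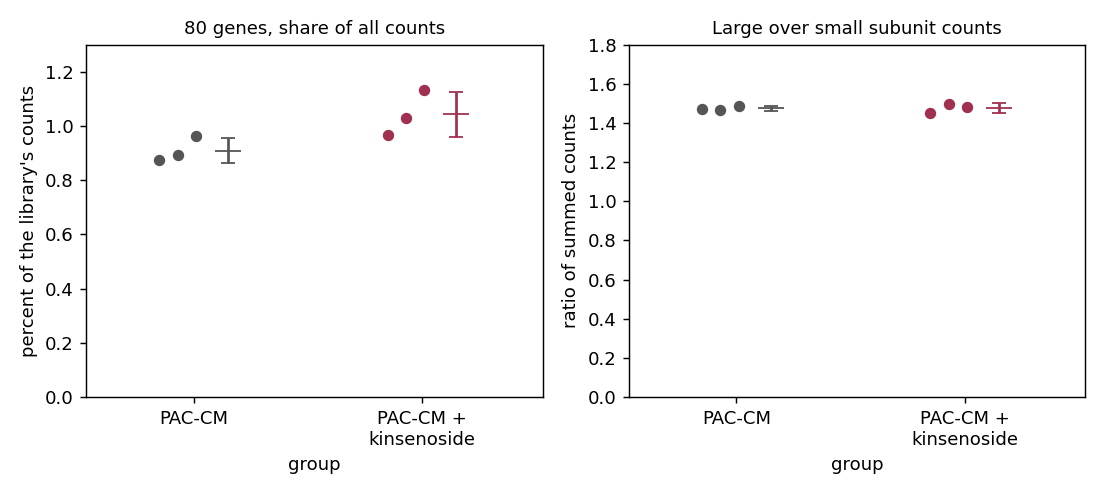
Left, percent of the library's counts taken by the 80 ribosomal protein genes (vertical axis) in each library of the 2 groups (horizontal axis); right, summed counts of large over small subunit genes. Points are libraries and bars are mean ± SD (n = 3); the share is separated between the groups, with means of 0.910% and 1.04%, while the ratio, with means of 1.47 and 1.48, overlaps.

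A set of 3 genes, named here after their values were seen, had counts that differed widely between libraries of the same group; those of Rps10 and Rpl29 fell at 2 levels, and those of Rps25 were spread more evenly.
Rps10, a small subunit protein that is ubiquitinated on stalled ribosomes, had 2881, 5561 and 3281 counts with PAC-CM and 5994, 5825 and 5978 with kinsenoside. PAC-CM replicate 2 was thus near the level of the kinsenoside libraries and the other 2 PAC-CM libraries well below it. Rps10 had the largest estimate of all 80 genes, 0.75, with an SE of 0.21 and an adjusted p of 0.204 in edgeR; without PAC-CM replicate 2 its estimate was 1.04 (adjusted p = 0.0054) and it was called.
Rpl29 had 3109, 5918 and 3441 counts against 3710, 5883 and 3410, with replicate 2 high in both groups. Rps25, needed for some internal ribosome entry sites, had 4389, 3310 and 5240 counts against 5017, 3350 and 3590. Their log2 fold changes were 0.20 and 0.00. No gene model overlapping these 3 genes held counts that mirrored these differences. Without them the group's median was 0.26 and its first component held 77.4% of the variance.

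Rpl18, also named after its values were seen, overlaps Sphk2 on the opposite strand. Rpl18 had 3032, 3321 and 3295 counts with PAC-CM and 3374, 3901 and 4021 with kinsenoside, and a log2 fold change of 0.36. Sphk2 had 5886, 6649 and 5469 counts and then 6141, 2507 and 2580. The 2 kinsenoside libraries with the highest Rpl18 count were those with the lowest Sphk2 count; whether the 2 are linked was not tested.

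Paralogue rows were far below their parents per kilobase of transcript: Rps27l was at 29.1 CPM per kilobase and Rps27 at 147, Rpl39l at 0.675 and Rpl39 at 88.8, Rps4l at 4.61 and Rps4x at 295, and Rpl6l at 6.35 and Rpl6 at 157. Rps27l, a p53-induced paralogue of Rps27, was at 13.2, 14.8 and 15.8 CPM against 13.6, 14.1 and 15.6 CPM and showed no difference (log2 fold change 0.03, SE 0.11). Rps27 itself, at 47.2 ± 3.52 and 54.2 ± 1.90 CPM, had an estimate of 0.25 without overlap. Rpl39, a protein of the peptide tunnel, was at 49.4 ± 2.88 and 59.3 ± 4.32 CPM (log2 fold change 0.31). Its paralogue Rpl39l, known mainly from testis, was at 0.405 ± 0.21 and 0.338 ± 0.13 CPM, and its SE of 0.50 allows no direction to be read.

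Rps4l, at 4.77 ± 1.52 and 3.92 ± 0.52 CPM, had a log2 fold change of -0.23 (SE 0.23), with PAC-CM replicate 1 high and all other libraries between 3.31 and 4.65 CPM. Its parent Rps4x, at 270 ± 17.6 and 305 ± 39.3 CPM, had an estimate of 0.22. Rpl6l, at 4.84 ± 0.53 and 6.23 ± 0.60 CPM, was the paralogue row with the largest estimate, 0.41. It was separated between groups, as was Rpl6 on the TMM scale, with an estimate of 0.25. Reads shared between near-identical copies can be split differently by the counting, so these rows are uncertain.

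Per kilobase of transcript, the ribosomal genes differed widely in level although their proteins enter the ribosome in equal numbers, the P stalk proteins excepted. Of the 80 genes 76 had at least 20 CPM, and among these the highest level per kilobase was 22.5 times the lowest. The lowest was Rps20, at 26.4 CPM per kilobase, whose length was taken as 3706 bases, the longest of the 80. The highest was a P stalk gene, so the range depends on both. Rplp1 was highest, at 595 CPM per kilobase over all libraries, followed by Rplp0 at 482, and Rpl19 and Rpl13 were the next of the large subunit, at 278 and 273. In the small subunit Rps24 was at 338, Rps12 at 316 and Rps9 at 306. The first 6 places were the same in both groups. Rps24, Rps12, Rpl19 and Rpl13 had log2 fold changes between 0.16 and 0.24. The medians of the subunits were 133 and 147 CPM per kilobase. Lengths are those of a single transcript per gene, and Rpl19 also holds a microRNA model, Gm27597, on the same strand, with between 1810 and 2221 counts per library.

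Correlations of the estimates with gene properties were weak to moderate, and given as descriptions. Across the 80 genes the log2 fold change correlated with the log2 of transcript length at -0.22 (Pearson) and -0.26 (Spearman). With the log2 of the mean CPM it correlated at 0.17 (Pearson) and -0.35 (Spearman). Without Rps4l, a row of low level, the values for mean CPM were 0.05 and -0.40, so Pearson's and Spearman's values differ in sign. Rpl39l, the row of lowest level at 0.371 CPM, was kept throughout, and its part in these values was not tested. Genes are not independent replicates. The ribosomal transcripts had a median length of 680 bases, against 2498 for all genes tested with a length. Among 1725 other genes with transcripts under 1000 bases the median log2 fold change was 0.08, and the median deviation of these short transcripts lay between -0.04 and -0.02 with PAC-CM and between 0.02 and 0.06 with kinsenoside, without overlap. With a correction for the length and GC content of transcripts, fitted without the ribosomal genes, the median of the 80 genes was 0.20 and that of all genes 0.01. The estimate was thus smaller with the correction and still above that of all genes.

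The estimates of genes with and without the start motif overlapped. The 12 genes with a C and 4 further pyrimidines at the annotated start, among them the 8 printed above, had a median log2 fold change of 0.30, and the 46 without it had 0.26; the ranges, 0.14 to 0.75 and -0.21 to 0.52, overlapped. With the motif allowed within 10 bases of the start the medians were 0.27 (n = 33) and 0.26 (n = 25). Over the 300 bases of each promoter entry, 250 before and 50 after the start, and on both strands, CCGGAAG, a core of ETS-family sites, was found in 24 of 58 genes (41.4%) against 9.12% of all entries. GGGCGG, the core of Sp1 sites, was in 34 (58.6%) against 35.9%, ATGGCG, a core of YY1 sites, in 16 (27.6%) against 9.24%, and CACGTG, the E-box bound by Myc, in 5 (8.62%) against 7.24%. TATAAA was in 5 (8.62%) against 14.2%. Rpl26, printed above, holds the letters CCGGAAG just after its annotated start.

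Rows named as pseudogene copies of ribosomal genes, with the ending -ps, had estimates in the same range. Of 275 such rows 80 passed the filter; 77 had an estimate above 0, and the median log2 fold change was 0.28. None was called by edgeR, and 18 were higher at an unadjusted p under 0.05 in edgeR, against 6.74% of all genes. DESeq2 called 1 higher, Rpl38-ps2, against 1.32% of the genes that it gave an adjusted p. The summed count of all such rows was between 6.31 and 6.44 for every 100 counts of the 80 genes in each library, a nearly fixed proportion. Reads shared between near-identical copies can be split by the counting. These rows are thus not independent of the 80 genes, and how many of their reads come from the parents was not tested. Of the ribosomal protein genes whose symbols fall outside the rule, 11 of 12 tested had an estimate above 0, with a median of 0.23. Neither tool called any, and 4 had an unadjusted p under 0.05 in edgeR. They include Fau, whose product contains a small subunit protein, at 124 ± 8.11 and 143 ± 11.2 CPM. Rpl9-ps6, Rps18-ps3 and Rps19-ps3 are rows of both sets, with estimates of 0.28, 0.36 and 0.32, so the sets are not separate.

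Other transcripts of the TOP class had a median between those of the ribosomal genes and of all genes. Of 24 elongation factors and other TOP mRNAs 21 had an estimate above 0, and the median was 0.12. None was called by edgeR or limma-voom, and 8 were higher at an unadjusted p under 0.05 in edgeR. Of all 13901 genes tested, 937 were higher and 1138 lower at that unadjusted threshold. This background applies also to the unadjusted counts of the lists that follow. DESeq2 called 2, Eef1a1 and Hnrnpa1, both higher, against 1.32% of the genes that it gave an adjusted p. Eef1a1, which carries aminoacyl-tRNA to the ribosome, was at 1344, 1414 and 1521 CPM against 1776, 1853 and 1730 CPM, clearly separated, with a log2 fold change of 0.37 and an adjusted p of 0.067 in edgeR. It passed in edgeR without a filter (0.044) or with the length and GC correction (0.039), and over all alternatives its adjusted p was between 0.000739 and 0.251. Hnrnpa1, an RNA-binding protein gene with a TOP motif, had an estimate of 0.30 and Tpt1 of 0.24. The 28 initiation factors had a median of 0.06, none called by either tool and 4 at an unadjusted p under 0.05 in edgeR, with Eif2s2 at 0.18 and Eif4a1, the RNA helicase of the cap complex, also at 0.18.

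Genes that build ribosomes had a median close to that of all genes tested. For the 90 ribosome assembly factors tested it was -0.0006, and 1 was called by edgeR and by DESeq2: Heatr1, a factor of the small subunit processome and of ribosomal RNA transcription, was at 29.8 ± 0.97 CPM with PAC-CM and rose to 39.7 ± 2.37 CPM (log2 fold change 0.45, SE 0.07, adjusted p = 0.041 in edgeR). This call was lost on leaving out any library other than kinsenoside replicate 1. Utp11 of the same list had an estimate of 0.22. The 33 genes of RNA polymerases I and III had a median of -0.0018, none called by either tool and 2 at an unadjusted p under 0.05 in edgeR, with Polr3g at 0.70 and Gtf3a, which serves the small ribosomal RNA genes, at -0.36.

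The 14 chaperones and importins of ribosomal proteins had a median of 0.05, none called by edgeR or DESeq2 and 2 at an unadjusted p under 0.05 in edgeR; Tnpo1, at 146 and 174 CPM in kinsenoside replicates 1 and 3 and between 57.9 and 65.6 CPM elsewhere, had the largest estimate, 1.12, and Ipo9 had 0.25. The 32 genes of mTORC1 and TOP regulation had a median of 0.05, none called by edgeR and 4 at an unadjusted p under 0.05; Rragd, at 0.50, was called by DESeq2, and Tia1, a repressor of TOP mRNA translation, had an estimate of 0.55. The 21 genes of ribosomal stress and p53 had a median of -0.02, none called by either tool and 2 at an unadjusted p under 0.05 in edgeR, with Cdkn1a at -0.21 and Phlda3 at -0.50.

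Mitochondrial ribosomal proteins, encoded in the nucleus but serving the other ribosome of the cell, were at the level of the background. The 78 tested had a median log2 fold change of -0.02. Mrps25 was the only one called by edgeR, DESeq2 or limma-voom: it was at 19.5 ± 0.68 CPM with PAC-CM and fell to 12.2 ± 0.82 CPM (log2 fold change -0.63, SE 0.09, adjusted p = 0.032 in edgeR). This call too was lost on leaving out any library other than kinsenoside replicate 1, with adjusted p-values between 0.074 and 0.139, and with the replicate block it was 0.052. Mrpl32 had an estimate of -0.45 and did not pass. Of 16 proliferation genes tested none was called by either tool, 3 had an unadjusted p under 0.05 in edgeR and the median was 0.01, with Mcm6 at -0.20 and Pcna at 0.20.

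**Figure D5:**
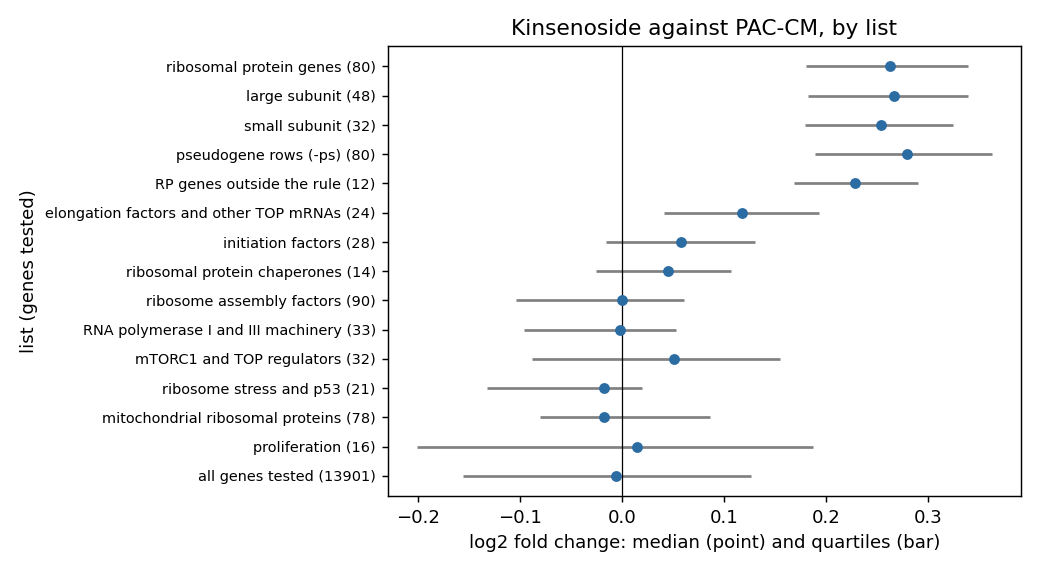
Median (point) and quartiles (bar) of the log2 fold change of kinsenoside over PAC-CM (horizontal axis) for each list of genes (vertical axis, with the number tested). Ribosomal protein genes, their pseudogene rows and those outside the naming rule have medians of 0.26, 0.28 and 0.23, the TOP and elongation list 0.12, and assembly factors and mitochondrial ribosomal proteins lie beside all genes tested near 0.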

How the data were processed

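The authors deposited whole-number gene counts, 1 column per library, per Ensembl identifier; the counting tool is not given in the sources used. Tools named without role in the submitters' processing notes are STAR, StringTie (1.3.1c), DESeq2 (1.16.1), FastQC (0.11.2) and bcl2fastq (2.20), and the build is GRCm38. On the untouched counts, edgeR (4.0.16, under R 4.3.3 with limma 3.58.1) was run with filterByExpr (13901 genes), TMM scaling, robust quasi-likelihood fits on group and 4 residual degrees of freedom, two-sided, with Benjamini-Hochberg adjustment at 0.05. Log2 CPM used a prior count of 2. Transcript lengths came from GENCODE annotation of GRCm38, and start sequences from RefSeq. The main edgeR test was checked on counts simulated with fold changes larger than the median of the ribosomal genes. That check did not cover a shift of the median's size. DESeq2 and limma-voom were not checked. No columns were unmapped.

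The members and lists were chosen with earlier results of these data known. Named genes are the called members, the 5 largest and 5 smallest estimates and the 4 highest levels per kilobase of each subunit, a panel of 18 genes with known roles, and from each other list the 2 of smallest p and any called. Other names, such as Rps18, Rpl35, Rpl35a, Rps4x and Rpl18, were added to illustrate a group, with their values known. Some genes named by the rule are not reported here. Alternatives were DESeq2 1.42.0, limma-voom, other scalings, filters and dispersion estimates, a replicate block, length and GC correction, a minimum of 600 counts, pseudogene counts added to the parent, and leaving out each library.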

Additional observations from a re-analysis of the deposited data

How the results depend on the processing

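The median log2 fold change of the ribosomal protein genes moved by less than the spread between replicates in all 21 alternatives (leaving out Rps10, Rpl29 and Rps25 was chosen after seeing the data), from 0.20 with the length and GC correction to 0.32 without PAC-CM replicate 3, and the number of genes above 0 was between 76 and 79. The median of the pseudogene rows was between 0.18 and 0.35. The number of genes called did not hold: it was 20 with DESeq2, 0 with upper quartile or total count scaling, non-robust estimates or the length and GC correction, and between 0 and 1 on leaving out a library (Rps10 without PAC-CM replicate 2, Rpl18 without kinsenoside replicate 1). The number of called genes in the translation and assembly lists, 1, became 4 with DESeq2, 2 without a filter or with the length and GC correction, 0 with total count scaling or non-robust estimates, and between 0 and 1 on leaving out a library. The difference between the subunits' medians, 0.01, was between -0.0086 and 0.042 on leaving out a library. Unlike the median of all members, it moved by more than its spread between replicates in 3 of 20 alternatives. In each of these a library was left out.

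With a replicate block 0 ribosomal genes and 0 of the listed genes were called, and the median was 0.26. The deviations of same-numbered libraries correlated at 0.01, -0.10 and 0.13, and those of differently numbered libraries between -0.17 and 0.16. With 3 libraries per group these values cannot decide whether the numbers pair the samples.

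Among the named genes 5 changed sign, all with estimates that their errors do not tell from 0. Rps25 was at -0.016, -0.042 and -0.090 with upper quartile scaling, total count scaling and the length and GC correction, and between -0.18 and 0.18 on leaving out a library. Rps27l was at -0.017 and -0.088 with total count scaling and the correction, and between -0.040 and 0.093 on leaving out a library. On leaving out a library Rpl39l ranged from -0.46 to 0.30, Rps4l from -0.44 to 0.024 and Rpl3 from -0.00060 to 0.10. The causes were not tested. Depth limits Rpl39l, with fewer than 1 CPM, and 3 libraries per group limit every estimate.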
